A study of Mus musculus with 2 samples.

Results

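The genes of oxidative phosphorylation were followed across lens and vascular cells of the newborn mouse lens. Members were chosen by symbol and by UMI total, where a UMI (unique molecular identifier) stands for 1 captured transcript: gene symbols of the subunits of complexes I, III, IV and V, in the nucleus or in mitochondrial DNA, with at least 200 UMIs summed over both libraries. Of 32285 genes in the count tables, 94 had such a symbol and 90 reached 200 UMIs, 77 of them nuclear and 13 mitochondrial. The nuclear members comprised 38 named for complex I, 8 for complex III, 14 for complex IV and 17 for complex V, and the mitochondrial members 7, 1, 3 and 2. Members were sorted by symbol, so that Ndufa4 and Ndufa4l2 count under complex I and Cox7a2l under complex IV. Ndufb1-ps, the only member that is not annotated as protein coding, was kept under its symbol. The UMI total thus chose the members and is given only as a description. Just inside the minimum were Cox7a1 with 452 UMIs, Cox4i2 with 1377 and Ndufa4l2 with 3123, and outside it were Cox6a2 with 76, Cox7b2 with 36, and Cox8b and Cox8c with 0.

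Both samples were pools of lens epithelium from 4 to 8 untreated wild-type C57BL/6N pups, 2 days old. All cell groups were drawn from these 2 pools, and each comparison thus has 2 sums a side. Single cells were captured with 10x Genomics 3′ v3.1 chemistry, which counts the 3′ ends of polyadenylated transcripts. Barcodes were assigned to groups by marker genes, none of which is a member: mural cells (pericytes and smooth muscle of vessels), vascular endothelial cells, and 5 groups of lens epithelial cells (LECs), namely early differentiating, late differentiating, S-phase, G2/M and resting. The ciliary body and the vessels around the lens had been cleaned off with forceps and trypsin before the cells were collected, and the source of the vascular cells that remained was not tested. Mural cells numbered 374 barcodes, endothelial cells 536, early differentiating LECs 1504, late differentiating LECs 1720, S-phase LECs 1468, G2/M LECs 1180 and resting LECs 3386.

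Oxidative phosphorylation moves electrons from NADH through complex I, ubiquinone, complex III and cytochrome c to oxygen at complex IV, and complex V makes ATP from the proton gradient that complexes I, III and IV build. Complex II, which is encoded wholly in the nucleus, feeds electrons from succinate. The other complexes mix subunits from both genomes: mitochondrial DNA carries the catalytic core of complex IV, cytochrome b of complex III and membrane subunits of complexes I and V, and all remaining subunits are made in the cytosol and imported. Several nuclear subunits have paralogs that are used in particular tissues. In the lens, fiber cells lose their mitochondria as they mature, and the epithelium holds most of the lens mitochondria.

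The 2 libraries held 93839132 and 86033032 UMIs in 12314 and 9425 barcodes, with medians of 6307 and 8050 UMIs per barcode, and 27 barcode sequences occurred in both. The lists of check genes for the 7 groups, kept out of the gates, had their highest sums in the group of their name, except for the early differentiating list, which reached 12449 to 12961 CPM in late differentiating LECs against 7059 to 7401 CPM in early differentiating LECs. Cspg4, a pericyte proteoglycan, stood at 453 and 472 CPM (counts per 1e6 UMIs after TMM scaling, edgeR's trimmed-mean library scaling) in mural cells and at 0 in both endothelial and both resting sums, and the 5 endothelial check genes summed to between 3651 and 3749 CPM in endothelial cells, 440 and 441 CPM in mural cells and 13.1 to 14.4 CPM in resting LECs. The 5 mural check genes summed to between 6530 and 7144 CPM in mural cells and to between 3052 and 3281 CPM in resting LECs, where Col4a1, a collagen of the lens capsule, made up most of the sum. Lens crystallin RNA reached the vascular groups: Cryaa stood in mural cells at 6.61% and 7.56% of its level in resting LECs, and in endothelial cells at 6.36% and 6.77%, although the vascular gates admitted only barcodes with under 1% of UMIs in alpha crystallins. In mural cells 6 fibroblast genes summed to 520 to 577 CPM, against 4.82 to 5.67 CPM in endothelial and 120 to 129 CPM in resting sums, with Dcn and Lum at 0, and 4 macrophage check genes summed to 153 to 303 CPM, against 54.3 to 85.9 CPM in resting sums. The 8 genes of the macrophage gate summed to 6.43 to 10.8 CPM in mural cells. The part of these cells in the mural results was not tested. Genes of pigment, retinal and corneal cells summed to at most 9.35 CPM in any group.

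The share of all UMIs that went to oxidative phosphorylation genes differed between cell groups and between the genomes. Nuclear members took 3.40% and 3.49% of UMIs in mural cells (replicates 1 and 2), 1.98% and 2.00% in endothelial cells, and 2.34% and 2.61% in resting LECs. Mural cells were thus above resting LECs in both pools and endothelial cells below them. The mural share includes Ndufa4l2, a member high in mural cells alone, with 2377 of the 533294 and 741716 UMIs of the mural sums. Nuclear members of complex V, which leave it out, took 1.04% and 1.01% in mural cells and 0.759% and 0.821% in resting LECs. Those of complex III took 0.328% and 0.367%, against 0.226% and 0.258%. Early differentiating LECs (2.31% and 2.51%), S-phase LECs (2.37% and 2.66%) and G2/M LECs (2.49% and 2.77%) had ranges that overlapped with that of resting LECs, and replicate 2 was higher than replicate 1 in every lens group. Within each pool G2/M LECs lay above resting LECs and S-phase LECs lay above them by less. Mitochondrial members took 5.94% and 5.90% of UMIs in mural cells, 4.54% and 4.56% in endothelial cells, and 5.89% and 5.88% in resting LECs. They took less in the cycling groups, with 4.97% and 4.68% in S-phase and 4.90% and 4.86% in G2/M LECs, and least of these groups in late differentiating LECs, with 3.32% and 3.58%. Nuclear members took 1.98% and 2.20% of all UMIs in late differentiating LECs, below resting LECs in both pools. Crystallins alone made up 31.6% and 28.8% of the UMIs of late differentiating LECs, against 7.39% and 7.37% in resting LECs. With crystallin and mitochondrial UMIs left out of the total, the nuclear members took 3.04% and 3.25% in late differentiating LECs and 2.69% and 3.003% in resting LECs. The ratio of mitochondrial to nuclear member UMIs, which no scaling changes, was 1.68 and 1.63 in late differentiating LECs and 1.75 and 1.69 in mural cells, against 2.52 and 2.26 in resting LECs. The mural ratio too includes Ndufa4l2.

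**Figure D1:**
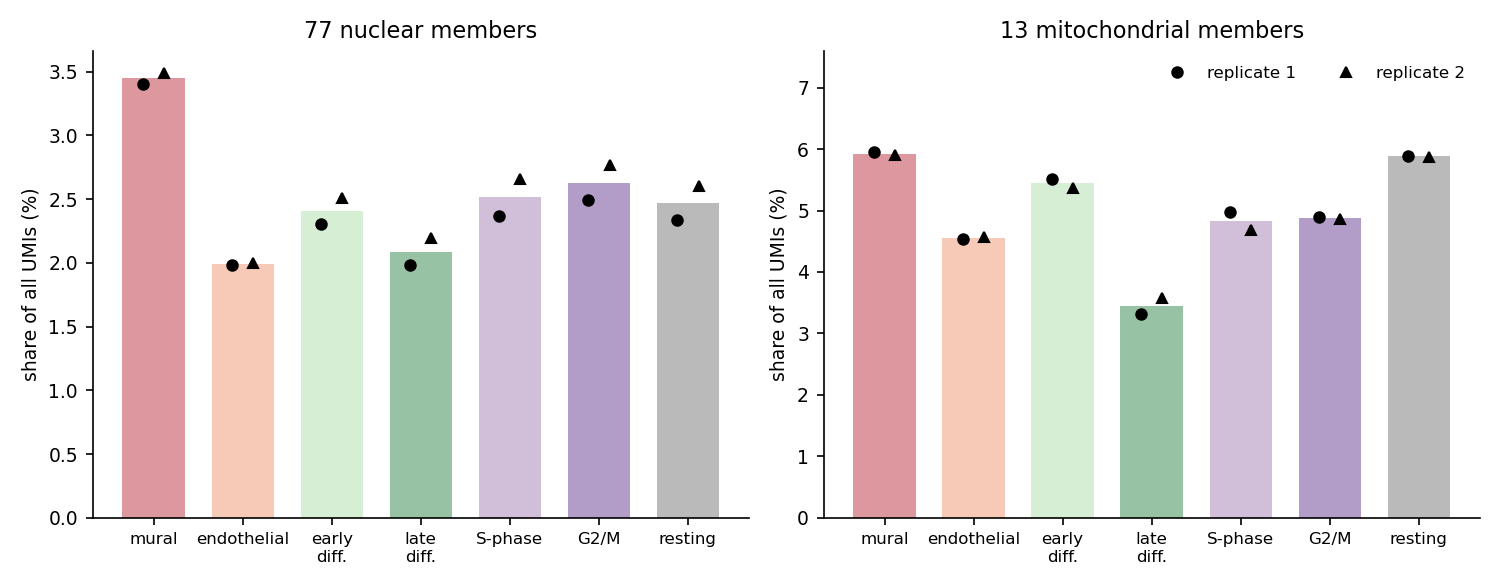
Share of all UMIs (%, y axes) that went to the 77 nuclear members (left) and the 13 mitochondrial members (right) in each cell group; bars are means of the 2 pools and symbols are the pools. Mural cells had the highest nuclear share (3.40% and 3.49%, with Ndufa4l2, high in mural cells alone, included), and late differentiating LECs had the lowest mitochondrial share (3.32% and 3.58%).

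The largest differences of single members lay between paralogs in mural cells. Ndufa4l2 (chromosome 10, 127514967 to 127517154, plus strand, GRCm38) encodes a paralog of NDUFA4 that is known as a target of hypoxia-inducible factors. It stood at 1597 and 1662 CPM in mural cells, against 0.840 and 0.390 CPM in resting LECs and 0 and 1.89 CPM in endothelial cells. The groups did not approach each other: 367 of 374 mural barcodes (98.1%, exact 95% interval 96.2 to 99.2) held a Ndufa4l2 UMI, against 2 of 536 endothelial barcodes (0.373%, 0.0452 to 1.34), at median depths of 3416 and 3155 UMIs per barcode. Its log2 fold change was 11.28 in mural cells against resting LECs, where 14 UMIs were held. The scaled ratio of these 2 groups had an exact 95% counting interval of 1540 to 4742. Below, unless marked SD, the value after ± is the size of a log2 fold change divided by the root of the test's F statistic. It can be narrower than counting error where a group holds few UMIs. Over both pools mural cells held 2377 of its UMIs and endothelial cells 2, a ratio of 2221 after scaling with an exact 95% counting interval of 614 to 18351. Ndufa4l2 is the only member that passed the filter on low counts through a single group, mural cells, so that it had to differ.

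Ndufa4 (chromosome 6, 11900292 to 11907497, minus strand) had the opposite pattern. It was first described in complex I and is now known as a subunit of complex IV. Mural cells had 46.6 and 45.7 CPM, against 418 and 442 CPM in endothelial cells and 530 and 631 CPM in resting LECs. Mural cells, with 67 of its UMIs, lay far below both other groups. Its log2 fold change was -3.67 against resting LECs (edgeR quasi-likelihood test, adjusted p = 1.53e-25) and -3.24 against endothelial cells (adjusted p = 2.14e-21). Ndufa4 in mural cells was at 8.79% and 7.23% of its level in resting LECs, beside 6.61% and 7.56% for the lens crystallin Cryaa and 5.32% and 5.06% for Cryab, and the part of lens RNA in its remaining counts was not tested. A Ndufa4 UMI was found in 13.9% of mural barcodes (exact interval 10.6 to 17.8) and in 76.5% of endothelial barcodes (72.7 to 80.0), at the same median depths. By pool these shares were 15.5% and 12.7% in mural cells and 76.9% and 75.9% in endothelial cells. Because 3′ counting gives 1 UMI per captured transcript whatever its length, both paralogs can be summed: together they reached 1643 and 1708 CPM in mural cells, 418 and 444 CPM in endothelial cells and 531 and 632 CPM in resting LECs. Ndufa4l2 made up 97.2% and 97.3% of that sum in mural cells, against 0.158% and 0.0617% in resting LECs.

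Cox4i2 (chromosome 2, 152754173 to 152765037, plus strand), the isoform of COX4 known from lung and from pulmonary arterial smooth muscle, was also a mural gene. It stood at 347 and 343 CPM in mural cells, against 1.20 and 0 CPM in endothelial cells and 1.51 and 1.36 CPM in resting LECs. The log2 fold change was 7.89 against resting LECs (edgeR, adjusted p = 1.34e-32), with a counting interval of 167 to 353 for the scaled ratio. In endothelial cells 2 UMIs faced the 501 in mural cells, a scaled ratio of 468 (counting interval 129 to 3876). Here the common isoform did not give way: Cox4i1 (chromosome 8, 120668222 to 120674207, plus strand) was higher in mural cells too, with 1841 and 1854 CPM against 1016 and 1081 CPM in resting LECs (log2 fold change 0.81 ± 0.06). Cox4i2 made up 15.9% and 15.6% of the summed COX4 counts of mural cells, against 0.149% and 0.126% in resting LECs.

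**Figure D2:**
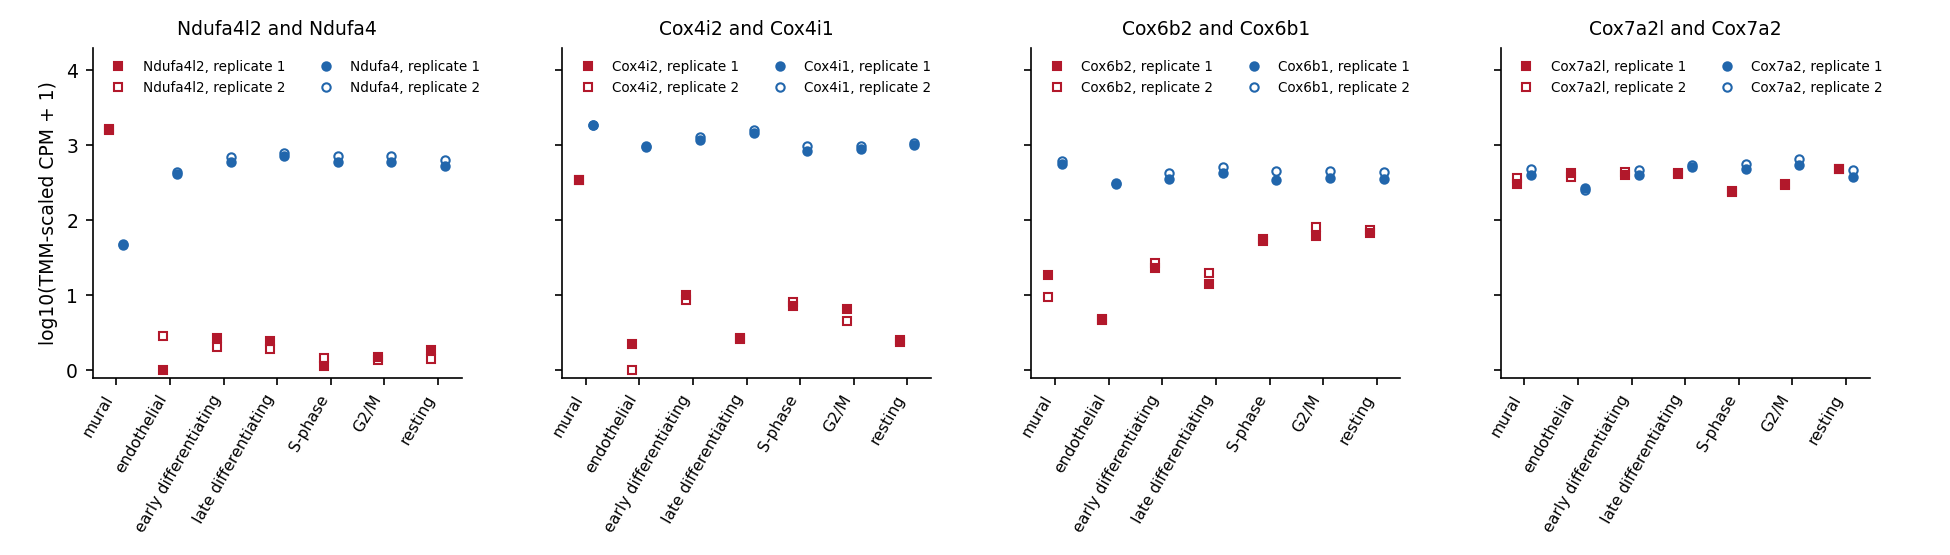
Levels of 4 paralog pairs, as log10(TMM-scaled CPM + 1) on the y axis, in the 7 cell groups; squares are the tissue-restricted or variant paralog, circles its partner, filled symbols replicate 1 and open symbols replicate 2. In mural cells Ndufa4l2 (1597 and 1662 CPM) lies above Ndufa4 (46.6 and 45.7 CPM), whereas Cox4i2 (347 and 343 CPM) lies below Cox4i1 (1841 and 1854 CPM).

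Promoter sequences from RefSeq (GRCm38.p6, 250 bases before to 50 after the start) matched 62 of the 77 nuclear members by symbol. A few are shown because their genes differ in pattern between the groups. Ndufa4 was low in mural cells, Cox6b2 was low in differentiating LECs and vascular cells, and Cox6b1 is the common partner of Cox6b2. Each is printed 5′ to 3′ on the strand of its gene. Capitals mark matches on either strand to any of 5 motifs, and none of these motifs contains another. The NRF1 core, bound by nuclear respiratory factor 1, was searched as GCGCATGC. The ETS core, bound by GABP and its relatives, was searched as CCGGAAG. The hypoxia response core was searched in its usual form, ACGTG, and in a variant of it, GCGTG. The CCAAT box was searched by the letters in its name, and the TATA box as TATAAA.
Ndufa4, chr6:11907401-11907700, minus strand: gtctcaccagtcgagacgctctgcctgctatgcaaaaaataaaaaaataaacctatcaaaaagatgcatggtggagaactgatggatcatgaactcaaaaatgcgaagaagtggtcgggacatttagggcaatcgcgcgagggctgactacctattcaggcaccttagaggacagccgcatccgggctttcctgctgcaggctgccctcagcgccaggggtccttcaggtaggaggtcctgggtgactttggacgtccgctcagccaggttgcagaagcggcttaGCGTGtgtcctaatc
Cox6b2, chr7:4753045-4753344, minus strand: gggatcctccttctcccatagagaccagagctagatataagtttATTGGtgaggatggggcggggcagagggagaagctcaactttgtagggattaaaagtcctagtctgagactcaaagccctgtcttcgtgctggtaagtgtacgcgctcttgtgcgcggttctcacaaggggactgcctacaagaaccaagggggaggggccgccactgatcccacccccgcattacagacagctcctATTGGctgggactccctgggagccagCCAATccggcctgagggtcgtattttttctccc
Cox6b1, chr7:30626065-30626364, minus strand: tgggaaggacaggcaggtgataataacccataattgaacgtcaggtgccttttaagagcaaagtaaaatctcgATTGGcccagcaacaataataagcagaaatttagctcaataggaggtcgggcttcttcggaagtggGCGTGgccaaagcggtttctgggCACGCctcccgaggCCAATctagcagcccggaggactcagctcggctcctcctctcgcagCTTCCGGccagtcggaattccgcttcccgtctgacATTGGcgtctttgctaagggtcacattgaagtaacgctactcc
Ndufa4 held 1 hypoxia response core and no other match, Cox6b2 held 3 CCAAT boxes, and Cox6b1 held 3 CCAAT boxes, 2 hypoxia response cores and 1 ETS core. Over the 62 matched members, 24.2% of promoters held the ETS core and 14.5% the NRF1 core, against 9.93% and 3.05% of the promoters of 27025 genes. The hypoxia response core was in 62.9% of members and 46.7% of all genes, the CCAAT box in 43.5% and 41.1%, and the TATA box in 9.68% and 15.7%. The members' promoters were richer in G and C, with a median of 57.2% against 52.8% over all genes, and the ETS and NRF1 cores themselves consist mostly of G and C. Promoters of Cox4i2, Ndufa4l2 and Cox4i1 were not among those matched.

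Beyond the paralogs, mural cells had more transcript of most nuclear subunits than resting LECs. Of 77 nuclear members, 45 were higher and 13 lower at an adjusted p below 0.05, with a median log2 fold change of 0.35, where 23.4% of all 13367 genes tested were higher, 22.8% were lower and the median was -0.12. Every complex had more members higher than lower: 21 against 8 for complex I, 5 against 0 for complex III, 9 against 3 for complex IV and 10 against 2 for complex V. Ndufa4l2, which had to differ, is counted among the higher members of complex I. Uqcrc1, a core subunit of complex III, stood at 182 CPM in both mural pools, against 91.9 and 89.4 CPM in resting LECs (log2 fold change 1.01 ± 0.12). Atp5b, the catalytic beta subunit of complex V, had a log2 fold change of 0.82 and Ndufv1, which binds NADH, one of 0.92. The members lower in mural cells included Ndufa1, an X-linked accessory subunit needed to assemble complex I, with 141 and 156 CPM against 415 and 556 CPM in resting LECs (log2 fold change -1.72 ± 0.10). They also included Cox6b2, the testis isoform of COX6B, with 17.7 and 8.41 CPM against 66.5 and 72.5 CPM (log2 fold change -2.51, 18 UMIs in mural cells).

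The mitochondria-encoded genes gave few calls in mural cells. Of 13, 1 was higher and 3 were lower than in resting LECs, with a median log2 fold change of -0.04. Of all genes 23.4% were higher and 22.8% lower, with a median of -0.12. The call for the higher one, mt-Nd4l, rested on 220 and 175 CPM in mural cells against 133 and 138 CPM in resting LECs. The lower ones were mt-Co1 (-0.34), mt-Co2 (-0.29) and mt-Nd1 (-0.28). Without TMM factors 4 mitochondrial members were higher and 3 lower, and the median was 0.07, so that no direction can be given for the mitochondrial genome as a whole in this comparison. In that setting 3419 of all 13367 genes were higher and 2632 lower, with a median of -0.01.

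Mural cells also exceeded endothelial cells. Among nuclear members 63 were higher and 2 lower, with a median log2 fold change of 0.68, while 15.4% of all genes were higher, 16.5% were lower and the median over all genes was -0.09. All 8 nuclear members of complex III were higher, as were 29 of 38 of complex I, 11 of 14 of complex IV and 15 of 17 of complex V. The higher members of complex I again include Ndufa4l2, which had to differ. Cox8a, a small subunit of complex IV, stood at 1528 and 1611 CPM in mural cells against 505 and 488 CPM in endothelial cells (log2 fold change 1.64 ± 0.08, adjusted p = 2.33e-21). Atp5o, the stalk subunit that holds the catalytic head of complex V, had a log2 fold change of 1.38. Besides Ndufa4, the only lower member was Cox7a2l, the paralog of Cox7a2, with 300 and 361 CPM in mural cells against 420 and 379 CPM in endothelial cells (log2 fold change -0.27 ± 0.10, adjusted p = 0.0317). Its call was lost in 5 of the alternatives, DESeq2 and the fit without the replicate block among them (adjusted p = 0.14 and 0.078), and without replicate 1 its log2 ratio was -0.047, so that Cox7a2l is not firmly placed below endothelial cells. For Cox7a1, the heart and muscle isoform of COX7A, endothelial cells held 0 UMIs and mural cells 4, too few for a fold change. In this comparison the mitochondrial genes went the same way as the nuclear ones: 10 were higher and 0 lower, with a median of 0.38.

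Endothelial cells were low in both sets. Against resting LECs, 4 nuclear members were higher and 53 lower, with a median log2 fold change of -0.38, where 28.9% of all genes were higher, 27.9% were lower and the median was -0.03. In complex V, 16 of 17 nuclear members were lower and 0 higher. Of the 13 mitochondrial members 11 were lower and 0 higher, with a median of -0.50. The 4 exceptions among nuclear members were Ndufa8, Ndufv1, Uqcrc1 and Cox5a. Ndufa8, an accessory subunit of complex I, stood at 232 and 227 CPM in endothelial cells against 121 and 135 CPM in resting LECs (log2 fold change 0.85 ± 0.09), and Ndufv1 at 115 and 89.8 CPM against 63.4 and 76.4 CPM. Against the same resting sums, their log2 fold changes in mural cells were 0.67 for Ndufa8, 0.92 for Ndufv1, 1.01 for Uqcrc1 and 0.37 for Cox5a. Above 20 CPM in resting LECs the largest decreases were those of Cox6b2 and Ndufa1. Cox6b2 had 3.61 and 3.78 CPM in endothelial cells against 66.5 and 72.5 CPM in resting LECs (log2 fold change -4.21, 10 UMIs in endothelial cells). Ndufa1 had 92.2 and 136 CPM against 415 and 556 CPM (-2.10 ± 0.09). Ndufc1, another accessory subunit of complex I, had 113 and 107 CPM in endothelial cells and 281 and 350 CPM in resting LECs. Cox6b2 in endothelial cells was at 5.43% and 5.22% of its resting level, beside 6.36% and 6.77% for Cryaa and 1.88% and 1.51% for Cryab, and the part of lens RNA was not tested. For Cox7a1, 0 UMIs in endothelial cells against 57 in resting LECs give a scaled ratio with an exact 95% counting interval of 0 to 0.545, and the median over nuclear members is the same with Cox7a1 set to the level of 3 endothelial UMIs.

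**Figure D3:**
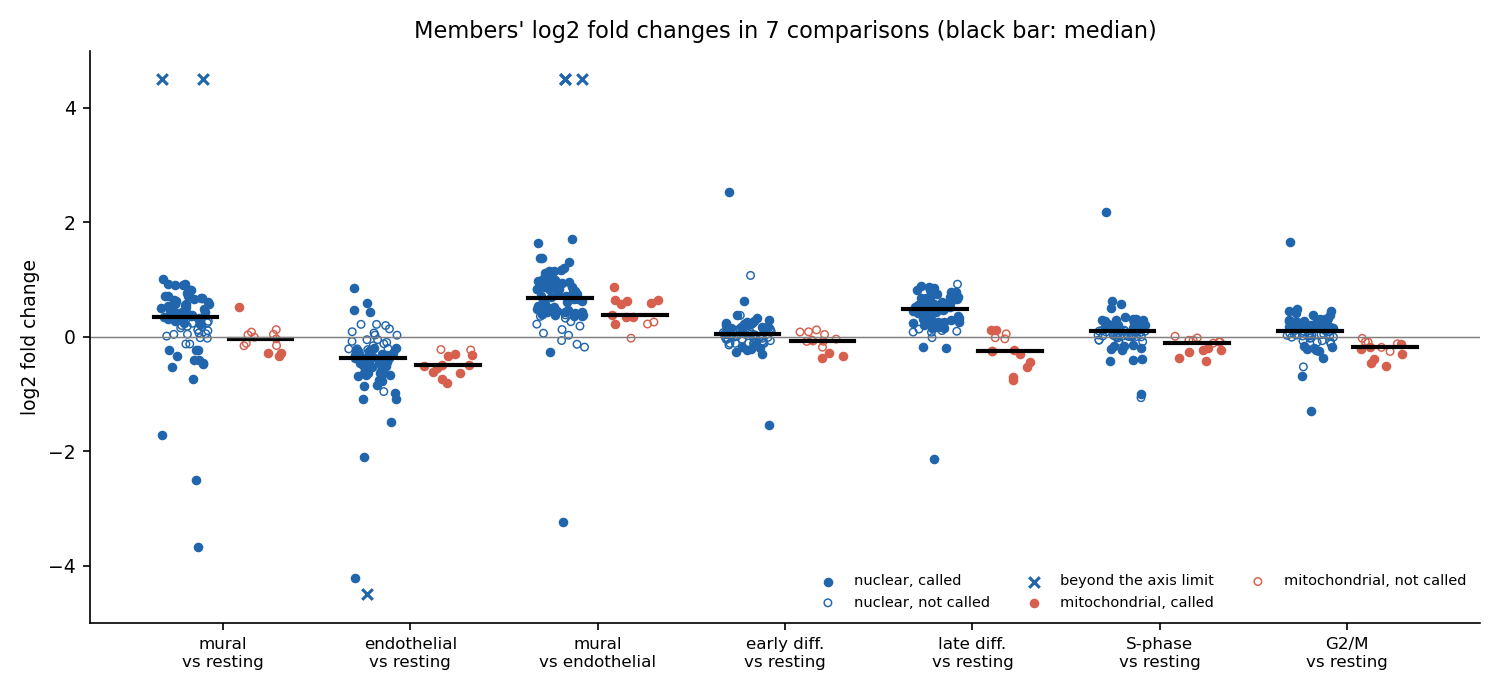
Log2 fold changes (y axis) of nuclear members (blue) and mitochondrial members (red) in 7 comparisons, named group first; filled points passed an adjusted p of 0.05, open points did not, black bars are medians, and crosses mark values beyond the axis. In late differentiating against resting LECs the nuclear median (0.48) and the mitochondrial median (-0.24) lie on opposite sides of 0.

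In the lens, the medians of the nuclear and the mitochondrial members lay furthest apart in late differentiating LECs, which were gated on beta and gamma crystallins and are the closest to fiber cells. With TMM scaling, 66 nuclear members were higher than in resting LECs and 3 lower, with a median log2 fold change of 0.48, while 30.6% of all genes were higher, 30.8% were lower and the median was -0.03. The rise spanned the complexes, with 32 of 38 members of complex I, 7 of 8 of complex III, 11 of 14 of complex IV and 16 of 17 of complex V. Above 20 CPM the largest increases were in accessory subunits of complex I: Ndufc1 stood at 557 and 600 CPM in late differentiating LECs against 281 and 350 CPM in resting LECs (0.88 ± 0.06), Ndufa13 at 626 and 723 CPM against 340 and 412 CPM (0.85 ± 0.05), and Ndufs5 at 391 and 409 CPM against 199 and 259 CPM (0.82 ± 0.06). Mitochondrial members went the other way, with 8 lower, 2 higher and a median of -0.24. The 3 nuclear members that were lower were Cox6b2, with 13.1 and 18.8 CPM in late differentiating LECs against 66.5 and 72.5 CPM in resting LECs (-2.14 ± 0.11), Atp5g2 (-0.19) and Cox7a2l (-0.18).

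The direction for nuclear members in late differentiating LECs depended on scaling. The TMM factors of the late sums were 0.66 and 0.68, against 1.08 and 1.04 for resting LECs. Without them the median over all genes fell to -0.69, with 1278 of 13367 genes higher and 8750 lower. The nuclear members became 5 higher and 47 lower, with a median of -0.18. The mitochondrial members became 13 of 13 lower, with a median of -0.90. Leaving out the factors shifts all genes of a comparison nearly alike, so positions relative to the median over all genes could not change and give no check. TMM over genes other than mitochondrial and crystallin genes gave the same nuclear counts as the main scaling, 66 higher and 3 lower. It hardly moved the calls over all genes (4088 higher and 4113 lower, against 4084 and 4123). Being TMM as well, it gives no check on the direction, and which scaling is right for these cells was not tested.

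Early differentiating LECs, gated on markers of the onset of fiber formation, had fewer calls than late differentiating LECs. Among nuclear members 19 were higher and 8 lower, with a median log2 fold change of 0.05, while 19.5% of all genes were higher, 19% were lower and the median over all genes was 0.00. Ndufa13, an accessory subunit of complex I, stood at 449 and 524 CPM in early differentiating LECs against 340 and 412 CPM in resting LECs (0.37 ± 0.05, adjusted p = 3.08e-07). Atp5j2, the f subunit of complex V, was also higher (0.34 ± 0.06). Cox6b2 had 22.0 and 25.95 CPM in early differentiating LECs against 66.5 and 72.5 CPM in resting LECs (-1.54 ± 0.10), and Ndufv3 (-0.30) and Atp5o (-0.26) were lower by less. Of the mitochondrial members 3 were lower and 0 higher. Without TMM factors 10 nuclear members were higher and 18 lower in early differentiating LECs, with a median of -0.05. In that setting 1856 of all 13367 genes were higher and 3082 lower, with a median of -0.08.

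Cycling LECs had small increases of nuclear members beside decreases of some mitochondrial ones. In S-phase LECs 30 nuclear members were higher and 10 lower than in resting LECs (median log2 fold change 0.10; 24.7% and 22.8% of all genes), and in G2/M LECs 31 were higher and 9 lower (median 0.11; 21.3% and 18.5% of all genes). The split depended on the method: DESeq2 called 21 nuclear members higher and 11 lower in S-phase LECs, and 15 higher and 12 lower in G2/M LECs (median 0.058). Over all genes DESeq2 called 2519 higher and 2307 lower of 13367 in S-phase LECs (median -0.051). In G2/M LECs it called 1969 higher and 1958 lower of 13107 (median -0.045). With edgeR, complex V was called in one direction only, with 10 of its 17 nuclear members higher in S-phase LECs and 9 in G2/M LECs. Cox5a, a subunit on the matrix side of complex IV, stood at 393 and 429 CPM in S-phase LECs and at 362 and 364 CPM in G2/M LECs, against 247 and 286 CPM in resting LECs (0.63 ± 0.07 and 0.45 ± 0.07). Ndufa5, an accessory subunit of complex I, stood at 128 and 166 CPM in S-phase and 126 and 156 CPM in G2/M LECs, against 90.8 and 117 CPM in resting LECs. Ndufv1 was higher in S-phase LECs (0.56 ± 0.08) and Cox7a2, the common COX7A isoform, in G2/M LECs (535 and 648 CPM against 378 and 467 CPM in resting LECs, 0.49 ± 0.06).

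Cox7a2l had the largest decrease of a nuclear member above 20 CPM in both cycling groups. It stood at 237 and 241 CPM in S-phase LECs (adjusted p = 6.38e-18) and at 291 and 305 CPM in G2/M LECs (-0.68 ± 0.06), against 484 and 473 CPM in resting LECs. The values in the 2 pools lay far closer together than the groups. Ndufa6 (-0.43 and -0.24) and Ndufv3 (-0.41 and -0.36), accessory subunits of complex I, were lower in S-phase and G2/M LECs as well. Without the pool as a block, 10 nuclear members passed in S-phase LECs and 10 in G2/M LECs, in place of 40 in each. Calls over all genes fell by a smaller part. In S-phase LECs 2667 genes were higher and 2309 lower without the block, in place of 3306 and 3053. In G2/M LECs 2140 were higher and 1733 lower, in place of 2850 and 2468. The S-phase gate began at 0.192% of UMIs in replicate 1 and 0.383% in replicate 2, and 748 barcodes passed both cycling gates and were given to the one in which they ranked higher. Cycling and resting LECs also differed in depth, with medians of 8430 and 10427 UMIs per barcode in S-phase LECs against 5398.5 and 6855.5 in resting LECs, and the part of depth in these small differences was not tested.

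Cox6b2 varied widely between the groups. It encodes a subunit of complex IV that is known for its expression in testis (chromosome 7, 4751792 to 4753094, minus strand). Its level averaged 24.0 ± 2.8 CPM (SD, n = 2 pools) in early differentiating LECs, 15.9 ± 4.0 in late differentiating LECs, 53.1 ± 2.9 in S-phase LECs, 69.5 ± 13.7 in G2/M LECs and 69.5 ± 4.2 in resting LECs. The vascular values were 17.7 and 8.41 CPM in mural cells and 3.61 and 3.78 CPM in endothelial cells. G2/M and resting LECs overlapped, and so did late differentiating LECs and mural cells. A Cox6b2 UMI was found in 11.6% of late differentiating barcodes at a median of 13209 UMIs and in 33.4% of resting barcodes at a median of 5872.5 UMIs, so that the lower share came with the greater depth. Its partner Cox6b1 moved far less, with 421 and 511 CPM in late differentiating LECs, 354 and 430 CPM in early differentiating LECs and 353 and 438 CPM in resting LECs.

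In the lens Cox4i2 was higher in early differentiating (9.13 and 7.63 CPM), S-phase (6.09 and 7.16 CPM) and G2/M LECs (5.57 and 3.53 CPM) than in resting LECs (1.51 and 1.36 CPM), with log2 fold changes of 2.53, 2.18 and 1.65 (mural cells had 347 and 343 CPM). A Cox4i2 UMI was present in 6.52% of early differentiating barcodes (median depth 8179 UMIs) and in 0.373% of endothelial barcodes (3155 UMIs). Cox7a1 did not exceed 5.55 CPM in any sum. The 3 genes of the c ring of complex V, Atp5g1, Atp5g2 and Atp5g3, encode the same mature protein with different import signals, and with TMM scaling they were called in opposite directions in late differentiating LECs: Atp5g1 was at 590 and 609 CPM against 341 and 409 CPM in resting LECs (0.68 ± 0.06), while Atp5g2 was at 615 and 618 CPM against 693 and 712 CPM (-0.19 ± 0.06), and Atp5g3 had a log2 fold change of 0.15. In G2/M LECs Atp5g2 was instead the highest of its 7 group levels, with 927 and 948 CPM (0.42 ± 0.06).

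The 13 mitochondrial genes are transcribed as long polycistronic RNAs, 12 of them from the same strand and mt-Nd6 from the other, and yet they did not change by equal amounts. In late differentiating LECs mt-Nd4l (80.5 and 79.2 CPM against 133 and 138 CPM in resting LECs, -0.76 ± 0.07), mt-Atp8 (-0.70 ± 0.10), mt-Nd6 (-0.52 ± 0.12) and mt-Nd5 (-0.44 ± 0.06) were lower, and so were mt-Nd3, mt-Co2, mt-Co3 and mt-Atp6 by 0.24 to 0.30 on the log2 scale. By contrast, mt-Cytb (7756 and 8123 CPM against 7029 and 7517 CPM, 0.13 ± 0.05) and mt-Nd2 (0.12 ± 0.05) were higher with TMM scaling. They turned to -0.53 and -0.54 without TMM factors. Neither passed without the replicate block (adjusted p = 0.19 for mt-Cytb and 0.30 for mt-Nd2) or without the low-count filter (0.098 and 0.15), and mt-Nd2 was also lost under 5 other alternatives that kept its direction. A scaling factor shifts all 13 alike, so that it bears on the signs and not on the spread between the genes.

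In the cycling groups the decreases were largest for mt-Co1 and mt-Co3 of complex IV. mt-Co1, whose product holds the oxygen-reducing site, had 4603 and 4517 CPM in S-phase LECs and 4291 and 4328 CPM in G2/M LECs, against 6082 and 6196 CPM in resting LECs (-0.43 ± 0.05 and -0.51 ± 0.05). mt-Co3 (-0.38 and -0.45) and mt-Co2 (-0.26 and -0.31) followed, along with mt-Nd5 (-0.23 and -0.38) and mt-Atp6 (-0.20 and -0.21). In S-phase LECs mt-Atp8 (-0.24) and in G2/M LECs mt-Nd4 (-0.17) and mt-Cytb (-0.12) also passed, and mt-Nd1 (-0.02 and -0.03) did not pass in either group. In all, 6 of 13 mitochondrial members were lower in S-phase and 7 in G2/M LECs, with 0 higher in both. Of all genes 22.8% and 18.5% were lower, and 24.7% and 21.3% higher. Of the nuclear members of complex IV, 7 of 14 were higher and 3 lower in S-phase LECs, Cox4i1 among the lower ones (847 and 963 CPM against 1016 and 1081 CPM in resting LECs, -0.21 ± 0.05).

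In endothelial cells the decreases lay between -0.30 for mt-Atp6 and -0.81 for mt-Nd5 among the 11 that passed, and mt-Atp8 (-0.22) and mt-Nd6 (-0.23) did not pass. In early differentiating LECs the 3 called genes were mt-Nd4l (-0.38), mt-Atp8 (-0.33) and mt-Nd5 (-0.29). mt-Atp8 overlaps mt-Atp6 by 43 bases and mt-Nd4l overlaps mt-Nd4 by 7, on the same strand and in shared transcripts, so that their reads may be divided unevenly, and mt-Nd6 had at most 30.1 CPM in any sum. The values count captured transcripts and not mitochondrial genomes, and how well the poly(A) priming of this chemistry captures each of the 13 was not tested. Barcodes with over 15% mitochondrial UMIs had been removed, which affected 1.65% of endothelial and 0.265% of mural barcodes.

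**Figure D4:**
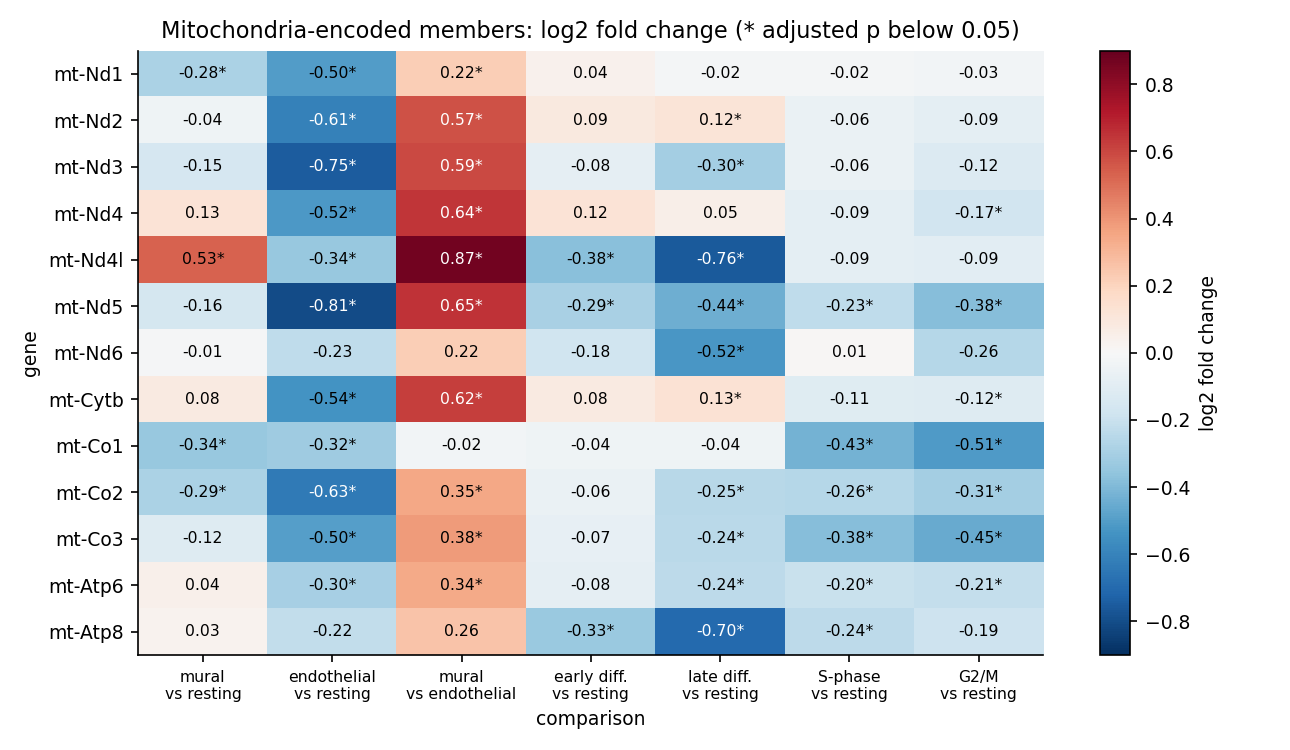
Log2 fold changes (colour and printed values) of the 13 mitochondrial genes (rows) in 7 comparisons (columns), named group first; an asterisk marks an adjusted p below 0.05. mt-Co1 was lowest in the cycling groups (-0.43 and -0.51), whereas mt-Nd4l (-0.76) and mt-Atp8 (-0.70) were lowest in late differentiating LECs.

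Genes that work with the respiratory chain were described by 5 related lists, whose counts stand beside 23.4% of all genes higher and 22.8% lower in mural cells and 30.6% higher and 30.8% lower in late differentiating LECs. Of 6 genes of complex II and cytochrome c, 5 were higher and 0 lower in mural cells than in resting LECs, and 4 higher and 0 lower in late differentiating LECs. Cyc1, the cytochrome c1 of complex III, stood at 202 CPM in both mural pools against 119 and 123 CPM in resting LECs (0.74 ± 0.11), and Sdhb, the iron-sulfur subunit of complex II, at 265 and 252 CPM in late differentiating LECs against 136 and 135 CPM in resting LECs (0.93 ± 0.06). Of 16 genes around the citric acid cycle 9 were higher and 2 lower in mural cells (median 0.41), led by Pdha1 of pyruvate dehydrogenase with 81.9 and 113 CPM against 22.4 and 18.9 CPM in resting LECs (2.26 ± 0.18). Suclg2, the GTP-forming succinyl-CoA ligase subunit, went the other way in mural cells (-1.13) and in late differentiating LECs (-1.66).

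Of 43 assembly factors 1 was higher and 11 were lower in mural cells, with a median of -0.37. Of 78 mitochondrial ribosomal proteins 4 were higher and 24 lower, with a median of -0.27. The share of assembly factors that were lower was near that of all genes, and both lists had fewer higher calls than all genes (the median over all genes was -0.12). In late differentiating LECs both lists had mostly higher calls with TMM scaling, with 24 higher and 1 lower (median 0.33) and 59 higher and 2 lower (median 0.50). Of the 20 genes that keep and express mitochondrial DNA, 3 were higher and 4 lower in mural cells and 5 higher and 7 lower in late differentiating LECs. Among them Ssbp1, which coats single-stranded mitochondrial DNA, was at 54.6 and 66.1 CPM in mural cells against 117 and 132 CPM in resting LECs (-1.05 ± 0.15). The coactivator Ppargc1b was at 30.5 and 27.6 CPM in mural cells (1.23 ± 0.28) and lower in late differentiating LECs (-2.20 ± 0.23), against 13.5 and 11.3 CPM in resting LECs. In endothelial cells 43 of the 78 ribosomal proteins were lower than in resting LECs and 6 higher (median -0.36), where 27.9% of all genes were lower and 28.9% higher.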

How the data were processed

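The deposited tables hold raw UMI counts (whole numbers), which the authors made with Cell Ranger 6.1.1 on mm10. Barcodes between the 2nd and 97th percentiles of genes and UMIs and with at most 15% mitochondrial UMIs were kept, and the 8% with the highest Scrublet scores per pool were removed, leaving 18494. Gates used shares of UMIs in marker panels (vascular 0.3%; lens groups the top 10% per pool, resting 30%). UMIs were summed per pool and group. The sums went into edgeR 4.0.16 under R 4.3.3 (TMM, default low-count filter, pool as a block, quasi-likelihood, Benjamini-Hochberg over 13367 genes). Same-numbered sums come from the same pups, and over 8393 genes the pool difference correlated between lens groups at 0.26 to 0.42, and over all pairs of groups at -0.13 to 0.42. On simulated counts (mural against resting) edgeR recovered 43 of 50 genes changed 2-fold and 15 of 50 changed 1.5-fold, with 7 false calls. Of 50 genes changed to 0.5-fold it recovered 28, so that decreases in mural sums were found less often than increases of the same size. Members, gates and lists were chosen with earlier results of these data known. Named genes were all mitochondrial members, the 3 largest called changes each way per comparison at 20 CPM or more, isoform pairs, and examples from lists; others were chosen after their values were seen. One result that the rule would name is not reported here. Intervals and floors (3 UMIs) cover counting error only. Positions come from GENCODE vM21. Alternatives were DESeq2 1.42.0, no TMM factors, TMM without mitochondrial and crystallin genes, no low-count filter, other gates and limits, no doublet removal, no replicate block and each pool left out. The authors' clustering was not used.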

Additional observations from a re-analysis of the deposited data

How the results depend on the processing

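Of 147 single results for named members, all kept their direction under every alternative except 9 in late differentiating against resting LECs without TMM factors. There the log2 fold changes became -0.54 for mt-Nd2, -0.53 for mt-Cytb, -0.51 for Atp5g3, -0.18 for Cox6a1, -0.29 for Ndufa4, -0.42 for Cox6b1, -0.13 for Cox4i1, -0.34 for Cox7a2 and -0.44 for Cox8a, along with a nuclear median of -0.18. Without TMM factors the mitochondrial median in mural against resting LECs was 0.074 and the nuclear median in early differentiating against resting LECs was -0.046. With lens gates of 5% the mitochondrial median in mural against resting LECs was 0.017. No TMM factors and lens gates of 5% each gave 7 mitochondrial members called in mural against resting LECs (4 as reported), and no TMM factors gave 8 in early differentiating LECs (3 as reported). Without the replicate block 4 nuclear members passed in early differentiating LECs (27 as reported), 10 nuclear and 3 mitochondrial in S-phase LECs (40 and 6) and 10 nuclear and 4 mitochondrial in G2/M LECs (40 and 7), and 37 of the 147 single results no longer passed. Over all genes 1789 were then higher and 1968 lower in early differentiating LECs, against 2607 and 2538. DESeq2 lost 11 of the 147, and in G2/M against resting LECs it called 15 nuclear members higher and 12 lower, against 31 and 9. Over all genes DESeq2 called 1969 higher and 1958 lower there, against 2850 and 2468. In S-phase LECs the split of nuclear calls was 21 higher and 12 lower without TMM factors, and 21 and 11 with DESeq2, against 30 and 10. Over all genes these settings called 2876 higher and 3400 lower, and 2519 and 2307, against 3306 and 3053. Leaving out a pool removes the residual degrees of freedom, so that only log2 ratios were left; the nuclear median in early differentiating LECs then ranged from -0.0062 to 0.081. The cause of these differences was not tested, other than that fewer samples enter where a pool is left out. The vascular sums hold between 532462 and 1450900 UMIs against 5416390 or more in lens sums, which limits what can be detected among their scarce members.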

Other observations

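Macrophages, a group of 50 barcodes (24 and 26 per pool) that was gated by its own markers and left out of the tests, gave levels only. Nuclear members took 1.68% and 1.77% of their UMIs and mitochondrial members 3.83% and 4.03%, with a ratio of 2.29 and 2.28. A Ndufa4 UMI was found in 40 of the 50 barcodes, and a Ndufa4l2 or a Cox4i2 UMI in 0 of 50, at a median of 4034.5 UMIs per barcode. The exact interval allows up to 7.11% of barcodes with such a UMI, a limit on detection and not on the cells that express the genes. The 8206 lens barcodes that fell in no lens subgroup had nuclear shares of 2.48% and 2.74% and mitochondrial shares of 5.42% and 5.15%.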
